A study of Mus musculus with 31 samples.

Results

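Kainate receptors are ionotropic glutamate receptors whose subunits are encoded by Grik1 to Grik5. Neto1 and Neto2 encode the transmembrane proteins that join these receptors as auxiliary subunits. These are 7 of the 18193 genes that have a probe set of their own on the array. All probe sets that the annotation lists for them were taken, whatever their values, and they numbered 14 of the 45037 mouse probe sets on the array. Of them 11 were tested, because they exceeded the median signal of their array on at least 3 arrays, as did 26877 probe sets in all. At least 1 probe set of each gene was among the 11.

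The arrays measured total RNA from the hippocampus of male C57BL/6 mice, with 1 mouse on each of 31 arrays. Glud1 transgenic (Tg) mice carry an added Glud1 gene, for the mitochondrial enzyme glutamate dehydrogenase, that is overexpressed in neurons, and the controls were wild type (wt) mice of the same strain and matched age. Both genotypes were taken at 10 days and at 4.5, 9, 14.5 and 20 months, with 3 mice in each group, except for 4 wt mice at 10 days. The comparisons ask how each gene moved through development and aging and whether Tg mice differed. The Glud1 probe sets lie in an untranslated region that the transgene lacks, so that nothing on the array checks the genotype labels. The labels do not say whether the mice came from separate litters.

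As background, Grik1, Grik2 and Grik3 encode subunits that can each form a channel alone, with a lower affinity for kainate. Grik4 and Grik5 encode subunits of higher affinity that reach the surface as working channels only together with one of those. The Neto proteins slow the closing of the channel and alter its affinity for glutamate. In the hippocampus these receptors are best known from the synapses of mossy fibers on CA3 pyramidal cells, where they carry slow currents, and from interneurons and presynaptic terminals, where they tune release.

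Signals below are the values as deposited, while log2 levels and fold changes refer to values after quantile normalization. A fold change is given with its standard error (SE), and its adjusted p comes from limma with the Benjamini-Hochberg method over the 26877 probe sets tested. A call means an adjusted p under 0.05 unless stated otherwise. Signals of different probe sets depend on their probes and cannot be ranked against each other, so that each is compared only with itself. RNA of the whole hippocampus was measured, in which fewer cells of a type and less RNA per cell cannot be told apart.

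The arrays of some ages stood apart. The log2 ratio of the 3' to the 5' Gapdh probe sets, a measure of RNA integrity and labelling, was between -0.08 and 0.02 at 4.5 months and between -0.46 and -0.14 at all other ages. For beta-actin the same ratio was 0.71 to 0.96 at 9 months, 0.51 to 0.55 at 20 months and 0.32 to 0.46 at the other ages, so that the 9-month and the 20-month arrays each stood apart. Its values at 4.5 months (0.35 to 0.46) overlapped those at 10 days (0.36 to 0.45). For the members, calls between ages that were lost with either ratio as a covariate are named with the result where that was run, and marker lists are given without it. The summed signal of 6 choroid plexus genes, tissue that lies against the hippocampus, ranged from 735 to 65959 between arrays.

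From 10 days to 4.5 months, Grik5 rose and Grik1, Grik2 and Neto2 fell, while Neto1 and Neto2 each had 1 tested probe set without a called change. Of the 11 probe sets, 7 were called, with 1 that rose and 6 that fell. Among all probe sets tested 63.5% were called, 32.2% rising and 31.3% falling, so that the share called among the kainate receptor genes lay near that of the array. When the Gapdh ratio was a covariate 3 of the 11 were called, namely the rise of Grik5 and the falls of Neto2 and Neto1 on 1 probe set each, while 36.1% of the array was called. The Grik1 call and both Grik2 calls were lost there. The median change of the 11 was -0.33, against 0.013 for all tested, and without quantile normalization the median of all was 0.14. Tg mice taken alone gave 7 calls with 48.4% of the array called, and wt mice alone gave 7 with 53.3% called, again with 1 rise and 6 falls in each.

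**Figure D1:**
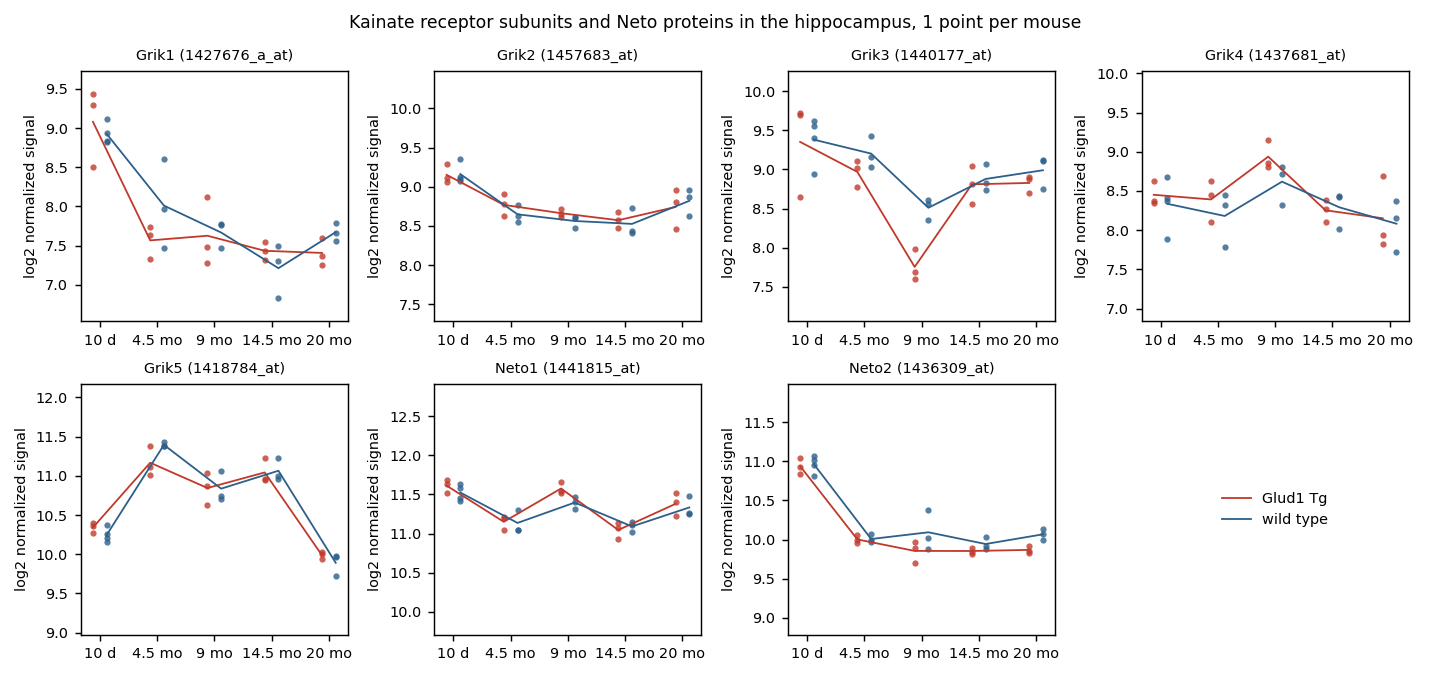
Log2 normalized signal (vertical axes, each spanning the same range) of the brightest probe set of each gene at the 5 ages (horizontal axes, not to scale in time). Each point is 1 mouse, red for Tg and blue for wt, and lines join group means. Grik5 was highest at 4.5 months (mean 11.28) and lowest at 20 months (9.94), Grik1 and Neto2 were highest at 10 days, and Grik3 was lowest at 9 months.

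Grik5 encodes the most widely expressed of the high-affinity subunits and had the clearest course over life. At 10 days its signals were 1219, 1347 and 1307 in Tg mice and 1212, 1322, 1181 and 1136 in wt mice. At 4.5 months they were 2639, 2162 and 2063 in Tg and 2656, 2679 and 2604 in wt. Every mouse at 4.5 months lay above every mouse at 10 days, and the rise was 0.99 ± 0.08 on the log2 scale (1.98-fold, adjusted p = 1.64e-12). With the Gapdh ratio as a covariate the rise was 0.99 ± 0.18 (adjusted p = 5.61e-05).

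Grik5 did not stay at this level. At 9 months the signals ran from 1533 to 2140, and at 14.5 months from 1981 to 2435. At 20 months they were 1031, 976 and 1031 in Tg and 827, 1004 and 1007 in wt mice, below every mouse of every other age. The fall from 4.5 to 20 months was -1.34 ± 0.08 (2.54-fold, adjusted p = 2.6e-14), and most of it fell between 14.5 and 20 months, at -1.12 ± 0.08 (adjusted p = 2.6e-12). The arrays of these 2 ages did not overlap in either ratio, with Gapdh at -0.40 to -0.35 and -0.46 to -0.43 and beta-actin at 0.32 to 0.40 and 0.51 to 0.55. This step of Grik5 was -1.12 ± 0.08 with the Gapdh ratio as a covariate (adjusted p = 2.87e-11) and -1.29 ± 0.13 with the beta-actin ratio (adjusted p = 6.87e-08). In order of level the ages ran from 4.5 to 14.5, 9 months, 10 days and 20 months, and all 4 neighbors in this order differed at an adjusted p under 0.05, the closest being 4.5 and 14.5 months (-0.23 ± 0.08, adjusted p = 0.0232) and 9 and 14.5 months (0.21 ± 0.08, adjusted p = 0.0227). With the beta-actin ratio as a covariate neither step between 9 months and its neighbors was called for any of the 11 probe sets, and 2.14% and 0.64% of the array were. For Grik5 these steps were then -0.87 ± 0.28 and 0.70 ± 0.31, larger than without the covariate and with wider errors.

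Grik4, the other high-affinity subunit, did not share this course. Its signals were 221 to 388 at 10 days, 236 to 411 at 4.5 months and 212 to 402 at 20 months, and these ranges overlapped throughout. Its change was -0.11 ± 0.15 (95% interval -0.42 to 0.20, adjusted p = 0.553) to 4.5 months and -0.17 ± 0.16 (-0.49 to 0.15, adjusted p = 0.426) from there to 20 months. These were -0.57 ± 0.34 and 0.42 ± 0.42 with the Gapdh ratio as a covariate, neither called (adjusted p = 0.202 and 0.596). The difference between Grik5 and Grik4 in these changes was tested on the values of each mouse, as 1 of 16 such tests between probe sets, with exact permutation tests that are two-sided and adjusted over the 16. Grik5 changed by 1.09 more to 4.5 months (adjusted p = 0.00187, exact permutation) and by -1.17 relative to Grik4 from there to 20 months (adjusted p = 0.00339, exact permutation). The smallest unadjusted p such a test can give is 0.000583 for 6 mice against 7 and 0.00216 for 6 against 6, and both values were reached.

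Grik4 was highest at 9 months, where Tg mice had signals of 567, 473 and 458 and wt mice 413, 439 and 325. It was 0.49 ± 0.16 above 4.5 months (adjusted p = 0.0117) and then fell by 0.51 ± 0.16 to 14.5 months (adjusted p = 0.00852). These are the arrays with the high beta-actin ratio, and with that ratio as a covariate the steps turned to -0.27 ± 0.56 and 0.36 ± 0.63, neither called (adjusted p = 0.885 and 0.877). Over the 5 ages Grik4 changed in Tg mice by limma's F-test (adjusted p = 0.0222), while in wt mice the adjusted p was 0.213. The test of a difference between genotypes over age had an adjusted p of 0.976.

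Grik1, a low-affinity subunit that in the hippocampus is found mainly in interneurons, fell the furthest after 10 days. The probe set 1427676_a_at gave 328, 610 and 663 in Tg and 438, 454, 436 and 528 in wt mice at 10 days. At 4.5 months it gave 168, 230 and 199 in Tg and 179, 268 and 404 in wt mice. All but 1 of the 4.5-month mice lay below all 10-day mice, and the exception, wt replicate 3, lay within their range. The fall was -1.21 ± 0.17 (2.32-fold, adjusted p = 2.89e-07).

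Grik1 did not return to its early level. The change from 4.5 to 20 months was -0.25 ± 0.17 (adjusted p = 0.273), and none of the steps between neighboring adult ages was called, while the level at 14.5 months was below that at 4.5 months (-0.47 ± 0.17, adjusted p = 0.037). Against 10 days the fall was as large or larger at 9 months (-1.36 ± 0.17), 14.5 months (-1.68 ± 0.17) and 20 months (-1.46 ± 0.17), and at each of these ages every mouse lay below every 10-day mouse. At 14.5 months 7 of the 11 probe sets differed from 10 days, with 57.7% of the array called. With the Gapdh ratio as a covariate the fall to 4.5 months was -0.70 ± 0.38 and no longer called (adjusted p = 0.158). The Gapdh ratios at 14.5 months overlapped those at 10 days, and there the fall without a covariate had an adjusted p of 6.81e-10. That value is for a later age, so that it does not settle the fall to 4.5 months. The other Grik1 probe set, 1439987_at, lay between 17.8 and 114 and was never above the median of its array.

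Markers of cell types moved over the same time, and their part in these falls was not tested. All 4 genes of immature neurons fell to 4.5 months, and their summed signal went from between 38443 and 46599 to between 5402 and 6313. All 4 genes of oligodendrocyte precursors, which also carry kainate receptors, fell, with sums of 4472 to 5856 at 10 days and 2291 to 2982 at 4.5 months. The 10 interneuron genes had sums of 26904 to 29964 and 28067 to 33887, with 5 that rose and 3 that fell. Of the 4 genes of neurons in general 3 rose and 1 fell. Their sums were 47432.5 to 52471.7 at 10 days and 55590.3 to 64632.5 at 4.5 months, without overlap. Of 4 genes of CA1 pyramidal cells 1 rose and 2 fell, and of 5 astrocyte genes 2 rose and 3 fell. For dentate granule cells, which form the mossy fibers, 5 of 6 genes rose and none fell, while for CA3 pyramidal cells 1 of 5 rose and 2 fell. Among all genes tested 31.2% rose and 35.5% fell over this span, which the counts of CA3 pyramidal cells lay near. The widest marker change was that of oligodendrocytes, where all 4 genes tested rose and the sums went from between 3326 and 7917 to between 38723 and 50048. Microglia genes, of which 4 of 5 rose and 1 fell, had sums of 5383 to 6280 and 8030 to 9234. Genes of the thalamus, which lies below the hippocampus, had sums of 3179 to 3522 and 1571 to 2254, with 1 of 4 that rose and 1 that fell. None of these 3 lists overlapped in sum between the 2 ages.

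Neto2 fell in parallel to Grik1. On its brightest probe set, 1436309_at, the signals at 10 days were 1854, 2152 and 1993 in Tg and 2015, 2248, 2138 and 1847 in wt mice. At 4.5 months they were 1030, 999.7 and 1073 in Tg and 1037, 993 and 1082 in wt mice. No 4.5-month mouse reached any 10-day mouse, and the fall of -0.94 ± 0.07 (1.92-fold, adjusted p = 1.93e-13) remained called with the Gapdh ratio as a covariate (-1.15 ± 0.15, adjusted p = 4.67e-07). From then on Neto2 was flat within error. Its change from 4.5 to 20 months was -0.04 ± 0.07, with a 95% interval from -0.17 to 0.10.

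Grik2, which encodes the subunit of most kainate receptors at mossy fiber synapses, has a pair of tested probe sets that both fell and then parted. On 1457683_at the 7 mice at 10 days gave 507 to 639 and the 6 mice at 4.5 months gave 388 to 481, without overlap. On 1425790_a_at the ranges were 203 to 315 and 113 to 181, also without overlap. The falls were -0.45 ± 0.09 (adjusted p = 5.26e-05) and -0.96 ± 0.16 (adjusted p = 8.34e-06), and with the Gapdh ratio as a covariate they were -0.23 ± 0.20 and -0.70 ± 0.38, neither of them called (adjusted p = 0.391 and 0.155).

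The second probe set fell by 0.52 more than the first (adjusted p = 0.00187, exact permutation). Later it came back, with 168 to 271 at 20 months, a rise from 4.5 months of 0.62 ± 0.17 (adjusted p = 0.00418), while 1457683_at changed by 0.07 ± 0.09 (adjusted p = 0.565). The difference between these later changes was -0.55 (adjusted p = 0.00577, exact permutation). The rise was not called with the Gapdh ratio as a covariate (0.30 ± 0.46, adjusted p = 0.756) and was 1.02 ± 0.22 with the beta-actin ratio. In the naming of these arrays, the ending _a_at marks probes that are shared by several transcripts of a gene.

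**Figure D2:**
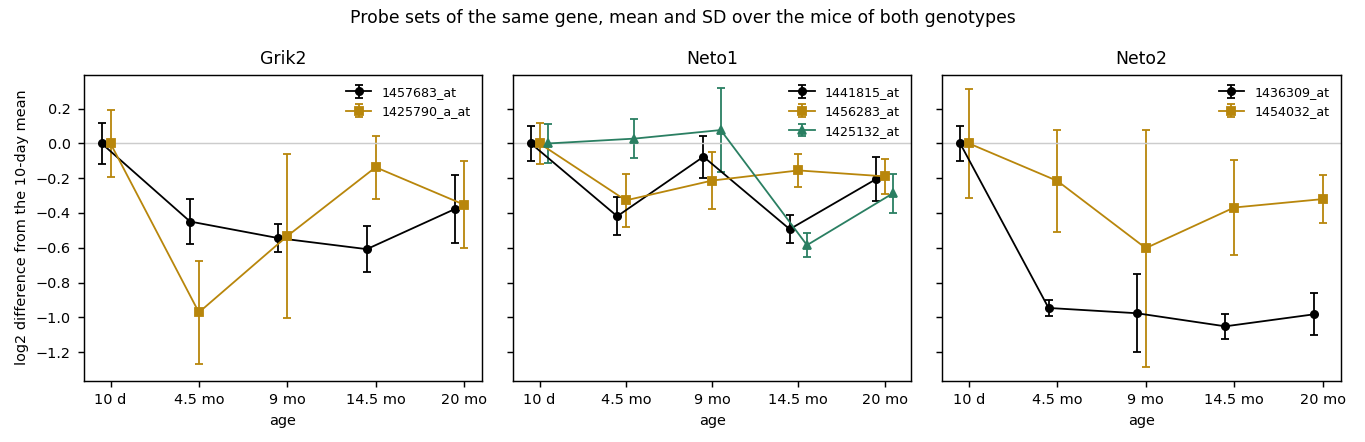
Difference from the 10-day mean in log2 units (vertical axis) against age (horizontal axis, not to scale in time) for the tested probe sets of the 3 genes that have more than 1. Symbols are means over both genotypes (7 mice at 10 days, 6 at each later age) and bars are SDs. The probe sets of a gene follow different courses, as for Neto1, where 1425132_at is flat to 9 months and 1441815_at is down at 4.5 and 14.5 months.

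Neto1, an auxiliary protein that also binds NMDA receptors, was measured by 3 probe sets, all of them well above the array medians. At 10 days 1441815_at gave signals of 2802 to 3417 and at 4.5 months of 2075 to 2531, without overlap, a change of -0.43 ± 0.06 (adjusted p = 3.04e-07). The probe set 1456283_at gave 2688 to 3382 and 1997 to 2688, a change of -0.33 ± 0.07 (adjusted p = 1.62e-04). On the third, 1425132_at, the ranges 1958 to 2508 and 1897 to 2312 overlapped, and its change of 0.02 ± 0.08 (95% interval -0.14 to 0.17, adjusted p = 0.837) turned to -0.03 without quantile normalization.

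The third probe set differed from each of the others in this change, by 0.45 (adjusted p = 0.00312) and 0.36 (adjusted p = 0.00339), both by exact permutation, while the others differed by -0.09 (adjusted p = 0.237, exact permutation). With the Gapdh ratio as a covariate the fall on 1441815_at remained called (-0.51 ± 0.14, adjusted p = 0.00433) and that on 1456283_at did not (-0.36 ± 0.16, adjusted p = 0.0843).

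In later life the probe sets of Neto1 moved in opposite directions. Between 4.5 and 20 months 1425132_at fell by 0.31 ± 0.08 (adjusted p = 0.00182) and 1441815_at rose by 0.21 ± 0.06 (adjusted p = 0.00588). The difference between these changes was -0.53 (adjusted p = 0.00339, exact permutation). These changes were -0.35 ± 0.22 and 0.32 ± 0.17 with the Gapdh ratio as a covariate, and with the beta-actin ratio -0.17 ± 0.10 and 0.21 ± 0.09. None of these was called (adjusted p from 0.0753 to 0.336), and 3 of the 4 were about as large as without the covariate or larger, with wider errors. Both were low at 14.5 months, where 1425132_at gave 1322 to 1519 and all mice of the 4 other ages 1545 to 2517. From 9 to 14.5 months they fell by 0.66 ± 0.08 (adjusted p = 5.05e-08) and 0.42 ± 0.06 (adjusted p = 1.76e-06), and to 20 months they regained 0.30 ± 0.08 (adjusted p = 0.00348) and 0.29 ± 0.06 (adjusted p = 4.6e-04), the latter not called with the beta-actin ratio (adjusted p = 0.092). The probe set 1456283_at had no called step between neighboring ages after 4.5 months. No single direction can therefore be given for Neto1 in adult life.

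The dimmer tested Neto2 probe set, 1454032_at, did not share the fall of the brighter one. Its signals ran from 112 to 212 at 10 days and from 125 to 205 at 4.5 months (-0.18 ± 0.21, adjusted p = 0.471), and with the Gapdh ratio as a covariate its change was -0.60 ± 0.50 (adjusted p = 0.373). The brighter one fell by 0.73 more (adjusted p = 0.00187, exact permutation). The dimmer probe set was above the array median on 27 of 31 arrays. Neto2 on its brightest probe set also fell by more than Neto1 on 1441815_at, by 0.53 (adjusted p = 0.00187, exact permutation).

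**Figure D3:**
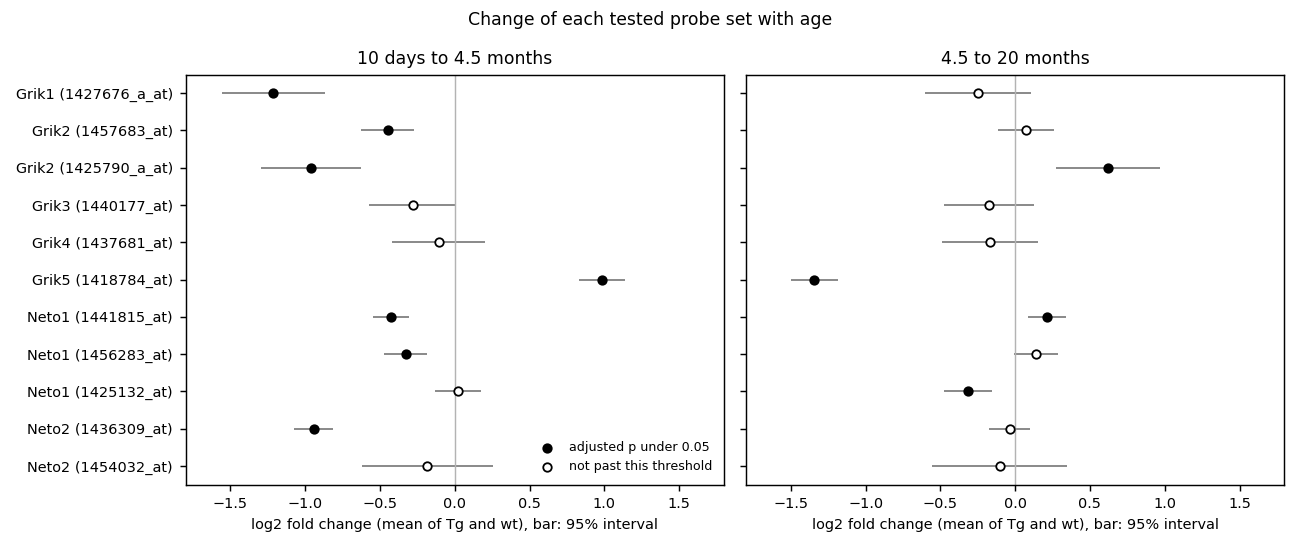
Log2 fold change (horizontal axes) of each of the 11 tested probe sets, as the mean of Tg and wt, from 10 days to 4.5 months (left) and from 4.5 to 20 months (right). Bars are 95% intervals, and filled points have an adjusted p under 0.05. Grik5 lies at 0.99 on the left and at -1.34 on the right, and the 6 other filled points on the left are all below 0.

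In the span from 4.5 to 20 months 4 of the 11 probe sets were called, 2 that rose and 2 that fell, where 38.5% of all probe sets were called, 20.4% rising and 18.1% falling. They are the Grik5, Grik2 and Neto1 changes given above, and Grik5 was the largest of them. In Tg mice alone 3 were called (22.6% of the array) and in wt mice alone 1, Grik5 (28.4%). With the Gapdh ratio as a covariate Grik5 was the 1 call left (-1.35 ± 0.21, adjusted p = 1.53e-04) with 10% of the array called, and with the beta-actin ratio 2 were left, Grik5 (-1.46 ± 0.11) and Grik2 on 1425790_a_at, with 27.1% called. Taken over all 5 ages, 9 of the 11 probe sets changed with age in Tg mice (72.3% of the array) and 9 in wt mice (73.8%) by limma's F-test.

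Grik3, a low-affinity subunit with a weak response to glutamate, was lowest at 9 months. On 1440177_at the signals were 366 to 807 at 10 days and 442 to 702 at 4.5 months, and the change between these ages of -0.28 ± 0.14 was not called (adjusted p = 0.0847). It was called without Tg replicate 1 of 10 days (-0.46, adjusted p = 0.00129), whose signal of 366 lay far below the 802 and 807 of the other 2 Tg mice, and without wt replicate 3 of 10 days (-0.35, adjusted p = 0.0267). Its sign turned with the Gapdh ratio as a covariate (0.42 ± 0.30, adjusted p = 0.285). The same Tg replicate 1 had the highest Gapdh ratio at 10 days, -0.19 against -0.43 to -0.34 in the others. This mouse also had the lowest Grik1 signal of that age (328), and its weight in the covariate fits was not tested.

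At 9 months the Grik3 signals were 263, 228 and 217 in Tg and 324, 385 and 380 in wt mice, below every mouse of every other age except for Tg replicate 1 of 10 days, whose 366 lay within this range. The step from 4.5 to 9 months was -0.95 ± 0.15 (adjusted p = 4.74e-06) and that from 9 to 14.5 months 0.71 ± 0.15 (adjusted p = 1.94e-04). As for Grik4, the 9-month arrays had the highest beta-actin ratios, and with that ratio as a covariate the steps were -0.91 ± 0.54 and 0.66 ± 0.61, close in size but with wider errors and neither called (adjusted p = 0.458 and 0.71). The genes of the thalamus were also lowest there, with a mean log2 level of 7.54 to 8.10 at 9 months and of 8.16 to 9.08 at the other ages, without overlap. Their summed signals did overlap, with 1026 to 1761 at 9 months, 1571 to 2254 at 4.5 months and 1570 to 2790 at 20 months. Of these 4 genes 2 fell from 4.5 to 9 months, where 24.3% of all genes fell. All 4 rose from 9 to 14.5 months, where 26.3% of all genes rose, and the part of these genes in the Grik3 dip was not tested. A second Grik3 probe set, 1427709_at, was between 2.93 and 36.7, and without detection calls it is not known whether it lay above background.

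In all, 5 of the 11 probe sets were called from 4.5 to 9 months (45.4% of the array), 5 from 9 to 14.5 months (51.3%) and 4 from 14.5 to 20 months (33.3%). The steps not yet given were the Grik5 change of -0.44 ± 0.08 and the rises on Neto1 1441815_at (0.34 ± 0.06) and Grik2 1425790_a_at (0.44 ± 0.17) from 4.5 to 9 months, and a rise on Grik2 1457683_at (0.23 ± 0.09, adjusted p = 0.0472) from 14.5 to 20 months. The Grik2 step of 0.44 was not called with the Gapdh ratio as a covariate (adjusted p = 0.691), and that of 0.23 with neither ratio (adjusted p = 0.128 and 0.198).

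The other ionotropic glutamate receptors and the proteins that act on kainate receptors give a scale for these changes. Each of their genes is shown by its brightest probe set. From 10 days to 4.5 months 3 of the 4 AMPA receptor subunit genes rose and none fell, and 4 of 5 tested NMDA receptor subunit genes rose and 1 fell. The NMDA receptor subunit gene Grin1 has no probe set of its own in the annotation, and Grin3b was not tested. Gria2, the AMPA receptor subunit that limits calcium entry, rose by 0.80 ± 0.03 (adjusted p = 1.93e-18), Gria1 by 0.74 ± 0.05 and Grin2b by 1.02 ± 0.09. Of the 12844 genes tested 31.2% rose and 35.5% fell. On the same kind of count, with 1 probe set for each gene, 1 of the 7 kainate receptor and Neto genes rose (Grik5) and 4 fell (Grik1, Grik2, Neto1 and Neto2). The Grik2 and Grik5 changes differed by 1.44 (adjusted p = 0.00187, exact permutation), a difference within the family. Under the Gapdh covariate 3 AMPA and 3 NMDA receptor genes rose and none fell, and of the 7 genes 1 rose and 2 fell, with 20.3% of all genes rising and 19.6% falling. With the beta-actin ratio the counts of these 3 groups were as without it.

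From 4.5 to 20 months 3 of the 4 AMPA receptor genes fell and 1 rose, and 4 of the 5 NMDA receptor genes fell, where 22.4% of all genes rose and 19.9% fell. Grin2b fell by 1.08 ± 0.09 (adjusted p = 1.38e-10) and Grin2d by 1.28 ± 0.12 (adjusted p = 3.95e-10), Grin3a by 0.92 ± 0.12 and Grin2a by 1.08 ± 0.21. These values stand beside the -1.34 of Grik5. The NMDA receptor genes did not fall steadily. From 4.5 to 9 months 4 of the 5 fell (median -0.99, with 24.3% of all genes falling). From 9 to 14.5 months 3 rose (median 0.39, with 26.3% of all rising), and to 20 months 4 fell (-0.64, with 15.3% falling). These calls were 4, 3 and 4 with the Gapdh ratio as a covariate and 1, 0 and 1 with the beta-actin ratio. Over the whole span Grik5 fell, and of the other 6 genes only Neto1 was called on its brightest probe set, where it rose. That probe set had the highest mean log2 level, while 1456283_at, with a higher median signal (2605 against 2535), was not called (0.14, adjusted p = 0.136) and the third fell. With the Gapdh ratio as a covariate 1 AMPA and 3 NMDA receptor genes fell and none rose (4.38% of all genes rising and 6.16% falling), and with the beta-actin ratio 2 AMPA and 3 NMDA receptor genes fell and 1 AMPA receptor gene rose (14.5% and 15%). Of the named falls Grin2a lost its call with each ratio (adjusted p = 0.0939 and 0.0881). Both spans use the 4.5-month mice.

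**Figure D4:**
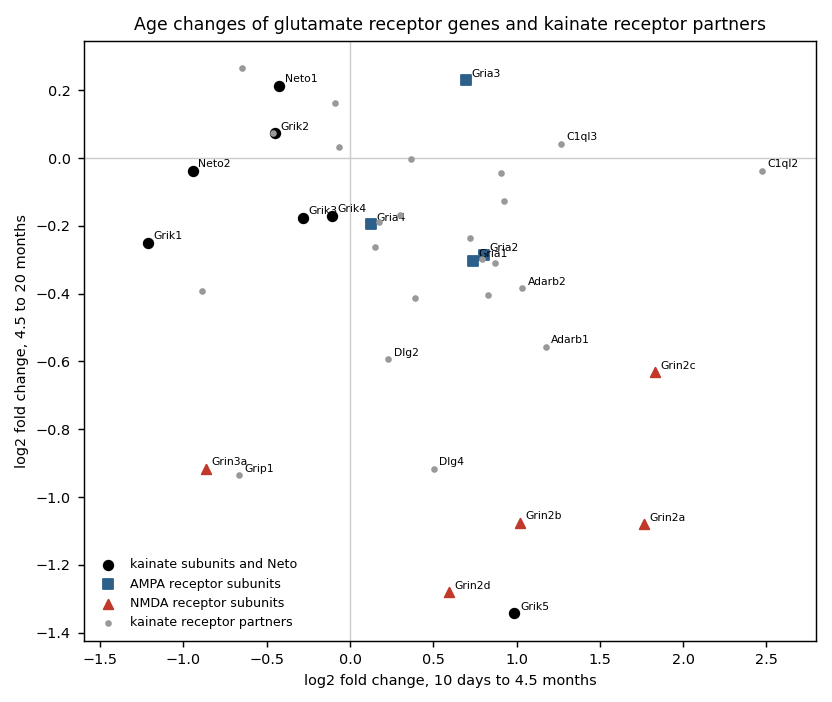
Log2 fold change from 10 days to 4.5 months (horizontal axis) and from 4.5 to 20 months (vertical axis) of kainate receptor and Neto genes (black circles), AMPA receptor subunits (blue squares), NMDA receptor subunits (red triangles) and partners of kainate receptors (gray points), by the brightest probe set of each gene and as the mean of both genotypes. Both axes share the 4.5-month mice. Grik5 lies near Grin2b, Grin2a and Grin2d at the lower right, and the 6 other black circles lie left of 0.

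Of 26 genes that encode partners of kainate receptors, 23 were tested. To 4.5 months 16 of them rose and 4 fell, where 31.2% of all genes rose and 35.5% fell. Their median change was 0.39, against -0.042 for all genes. The partners with the smallest p were Nsf (0.87 ± 0.04) and Napa (0.72 ± 0.04), which act together in membrane fusion and receptor exchange, the scaffold gene Dlg1 (0.91 ± 0.05) and the RNA-editing enzyme gene Adar (0.79 ± 0.05). Adarb1, whose enzyme edits the pore of Grik1 and Grik2, rose by 1.17 ± 0.12 (adjusted p = 7.19e-10). C1ql2 and C1ql3, secreted proteins of mossy fiber terminals that bind kainate receptor subunits, rose by 2.47 ± 0.15 and 1.27 ± 0.08. These last 3 were picked after their values were seen, and C1ql2 is also among the dentate granule cell genes counted above. Given the Gapdh ratio as a covariate, 13 partners rose and 2 fell, where 20.3% of all genes rose and 19.6% fell. All 7 named rises were still called.

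Of the 23 partners, 12 fell from 4.5 to 20 months and 2 rose, where 19.9% of all genes fell and 22.4% rose. The median change of the partners was -0.24, against 0.031 for all genes. The smallest p were those of Dlg2 (-0.59 ± 0.06), Dlg3 (-0.41 ± 0.04), Nsf (-0.31 ± 0.04) and Dlg4 (-0.92 ± 0.11). Of these Dlg2, Dlg3 and Dlg4 encode scaffolds of the postsynaptic density. C1ql2 (-0.04 ± 0.15) and C1ql3 (0.04 ± 0.09) were not called. Under the Gapdh covariate 4 partners fell and none rose, where 6.16% of all genes fell and 4.38% rose. Of the 4 named falls only Dlg3 was still called there (adjusted p = 0.0078), while C1ql3 was called as falling (-0.67 ± 0.19, adjusted p = 0.0201). With the beta-actin ratio 10 partners fell and none rose, where 15% of all genes fell and 14.5% rose.

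Over the means of the 10 groups, the genes most like a member in pattern were found by Pearson correlation, which here describes 10 points that share the differences between the arrays of the 5 ages. Closest to Grik5 were Pip5k1c (r = 0.992), Scaf1 (0.989) and Spock2 (0.987). Closest to Neto2 were Acot7 (0.991), Ncaph (0.991) and Fabp7 (0.991), the last of which encodes a fatty acid binding protein of radial glia. Closest to Grik1 were Klf7 (0.985), Syn3 (0.984) and Farp1 (0.979), to Grik3 Efna5 (0.965), Kif18b (0.962) and Map3k6 (0.961), and to Grik4 Mphosph10 (0.951), Kdm5b (0.948) and Arfip2 (0.915). For Grik2 they were Stard7 (0.981), Sbk1 (0.978) and Vdac3 (0.976), and for Neto1 Zfp386 (0.971), Cdk8 (0.968) and Vps8 (0.967).

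Few differences between Tg and wt mice were found in these genes. None of the 11 probe sets was called in limma's F-test of Tg against wt over the 5 ages, which called 0.16% of the array, and 1 had an unadjusted p under 0.05, as did 10.2% of the array. None was called on the mean over ages (0.00744% of the array) or in the test of an age by genotype interaction (0.0484%). On the mean over ages 2 had an unadjusted p under 0.05 (8.39% of the array), namely Grik3 at -0.25 ± 0.09 (95% interval -0.44 to -0.06, adjusted p = 0.486) and Neto2 on 1436309_at at -0.11 ± 0.04 (adjusted p = 0.511). In the interaction test 0 had one (9.11% of the array). For the other 9 probe sets the mean difference lay between -0.09 and 0.14.

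At single ages the rule for a call followed the study's methods and was stricter, in that the adjusted p could not exceed 0.01 and the fold change had to reach 1.3. No member was called at any age. The share of the array called was 0.00372% at 10 days, 0% at 4.5 and 14.5 months, 0.714% at 9 months and 0.0223% at 20 months. The differences ranged from -0.46 to 0.15 at 10 days, -0.44 to 0.21 at 4.5 months, -0.75 to 0.33 at 9 months, -0.19 to 0.22 at 14.5 months and -0.26 to 0.10 at 20 months. The number with an unadjusted p under 0.05 was 0, 1, 3, 0 and 1, where the share of the array was 7.12%, 5.96%, 19.2%, 0.979% and 4.46%. With 3 mice in most groups the intervals are wide for some genes. That of Grik1 at 4.5 months ran from -0.95 to 0.06 and that of Grik4 at 9 months from -0.14 to 0.77.

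**Figure D5:**
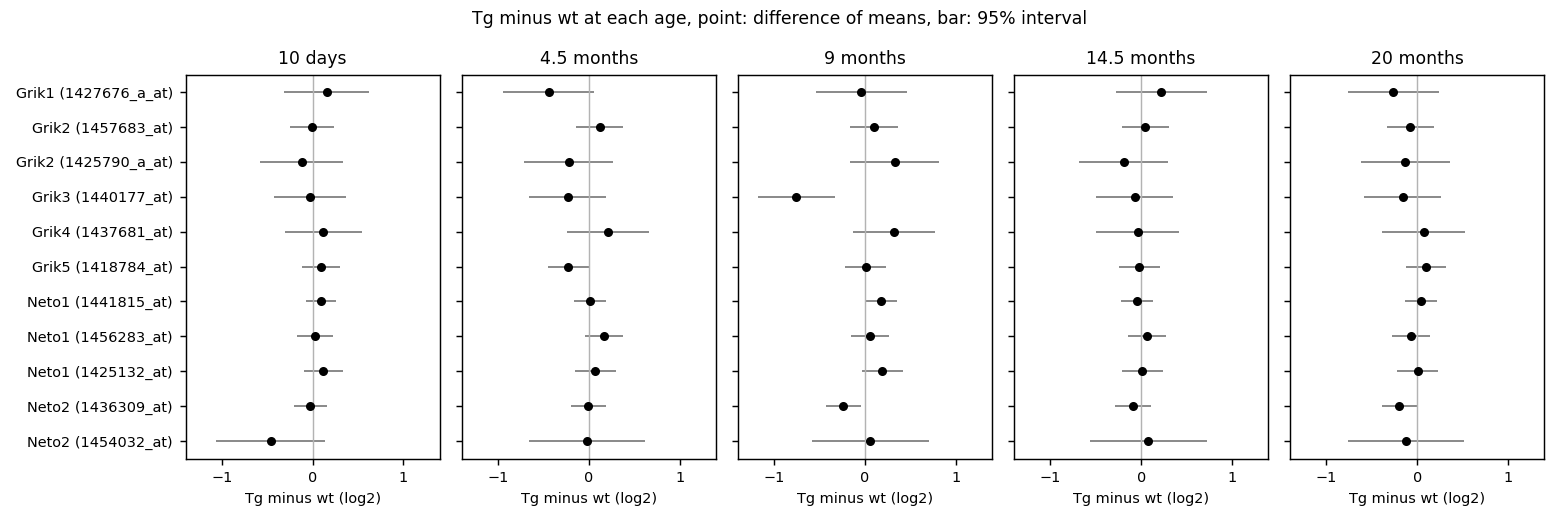
Difference between Tg and wt means in log2 units (horizontal axes) for each of the 11 tested probe sets at each age, with 95% intervals (bars). Groups hold 3 mice, except for 4 wt mice at 10 days. The interval of Grik3 at 9 months runs from -1.18 to -0.33, and most of the other intervals include 0.

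The largest difference was that of Grik3 at 9 months, where the signals of the 3 Tg mice lay below those of the 3 wt mice, as given above. The difference was -0.75 ± 0.21 (1.69-fold lower in Tg, adjusted p = 0.0402), which does not meet the threshold of 0.01. At an adjusted p under 0.05 alone it was the 1 call among the 11, with 3.48% of the array called at this age. It missed that threshold in 9 alternatives, at adjusted p from 0.0506 to 0.258, among them the analysis without quantile normalization (-0.62, adjusted p = 0.114) and those without Tg replicate 2, Tg replicate 3, wt replicate 2 or wt replicate 3 of 9 months (-0.72, -0.68, -0.70 and -0.73). Without Tg replicate 1 of 10 days, which enters only through the shared spread, it met the threshold of 0.01. At 9 months the beta-actin ratio was 0.71 to 0.76 in Tg and 0.77 to 0.96 in wt mice, without overlap, and with this ratio as a covariate the difference was -0.77 ± 0.28 (adjusted p = 0.258). With the Gapdh ratio as a covariate it was -0.88 ± 0.19 (adjusted p = 0.0118), which also misses the threshold of 0.01. The summed signal of the thalamus genes was 1026 to 1566 in these Tg mice and 1424 to 1761 in the wt mice, lower in Tg with overlap, and its part was not tested. Grik3 did not differ between genotypes beyond its error at the other ages, with values from -0.23 to -0.03.

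Grik5 rose and then fell in both genotypes. Its rise to 4.5 months was 0.83 ± 0.11 in Tg and 1.15 ± 0.10 in wt mice, a difference of -0.32 ± 0.15 with an unadjusted p of 0.0404 and an adjusted p of 0.683. Its fall to 20 months was -1.18 ± 0.11 in Tg and -1.50 ± 0.11 in wt mice, a difference of 0.32 ± 0.16 with an adjusted p of 0.812. Both differences rest on the same 4.5-month mice, in which Tg was lower by 0.23 ± 0.11. No other member had an unadjusted p under 0.05 for a difference between genotypes in either change. No member was called in these 2 tests, which called 0% of the array for the change to 4.5 months and 0.00744% for the change to 20 months.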

How the data were processed

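The table used holds signal intensity values that the authors deposited, made with MAS5 per the submitters' processing notes, whose version and settings are not given in the sources used here. They are linear and scaled per array, with medians from 91.4 to 140. The table carries no detection calls, so whether a dim signal lay above background is not known. The study's methods describe RMA values, which were not used here, and give 3 mice per group where the deposit has 4 wt mice at 10 days. All 31 arrays were used.

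After 64 control probe sets were set aside, the other 45037 were turned to log2 and quantile normalized, and those above the array median on at least 3 arrays (26877) were tested. The annotation gives 34945 probe sets a single gene, leaves 9160 without one and names more than 1 gene for 932. Symbols of 34741 were brought up to date through the gene identifier. A linear model in limma 3.58.1 (R 4.3.3) gave each of the 10 groups a mean, with trended and robust moderation and 21 residual degrees of freedom before moderation. Age changes are the mean over both genotypes. The model was also run on simulated data, whose outcome is not given here, so that nothing about the calls is read from it. Named genes were all members, the 3 most alike in pattern, and the 4 of the smallest p in each list for a span. The members and lists were chosen with earlier results of these data known.

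Alternatives left out quantile normalization, added 50 to each signal, dropped the filter or moved it to the 60th percentile, dropped trend and robustness, changed thresholds, added a replicate block or the Gapdh ratio, and left out each mouse. Added after the data were seen were the beta-actin ratio, leaving out the 9-month arrays, and 14.5 in place of 4.5 months. The 16 exact permutation tests between probe sets were not among the planned tests either. SAM, Cyber-T and EDGE, which the study used, were not run. No probe, transcript or protein sequence is shown. The number of arrays limits the precision.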

Additional observations from a re-analysis of the deposited data

How the results depend on the processing

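Of 204 recomputed counts of age changes 196 stayed within 1.5 times the count reported. The counts of Tg against wt were 0 as reported, so that little can be read from their staying there. Of 917 recomputed single values 886 kept their direction and their side of the threshold. Most of the recomputed counts and values left out 1 mouse, which in many of them enters only through the shared spread. Little can therefore be read from these pooled numbers, and the fits with a covariate are given next. From 10 days to 4.5 months 3 probe sets were called with the Gapdh ratio as a covariate (36.1% of the array). From 4.5 to 20 months 1 was called with the Gapdh ratio (10%), 2 with the beta-actin ratio (27.1%) and 2 when a fold change of at least 1.3 was also required. With the beta-actin ratio 0 were called from 4.5 to 9 months (2.14% of the array), 0 from 9 to 14.5 months (0.64%) and 2 from 14.5 to 20 months (12.3%). In that last step 1 was called with the fold limit and no covariate, with 4875 of all tested. For Tg against wt at 9 months 1 was called at an adjusted p under 0.05 without the fold limit (3.48% of the array). Left out 1 at a time, the 31 mice gave 7 to 8 calls to 4.5 months, 4 to 4 from 4.5 to 20 months, 4 to 6 for each step at 9 months, 3 to 4 from 14.5 to 20 months and 0 to 1 for Tg against wt at 9 months. With all mice the array shares in this order were 63.5%, 38.5%, 45.4% and 51.3%, 33.3% and 0.714%. Among the 917 single values, direction turned only for changes that were not called. The called Grik4 steps to and from 9 months are not among them, and both turned with the beta-actin ratio, as given above. To 4.5 months Grik3 was at 0.42 with the Gapdh ratio, and without quantile normalization Grik4 was at 0.048, Neto1 on 1425132_at at -0.031 and Neto2 on 1454032_at at 0.075. Neto1 on 1425132_at was at -0.013 to 0.059 over the mice left out, below 0 without Tg replicate 2 of 10 days (-0.013), Tg replicate 3 of 4.5 months (-0.0058) and wt replicate 1 of 4.5 months (-0.0037). From 4.5 to 20 months with the Gapdh ratio Grik2 on 1457683_at was at -0.20, Grik4 at 0.42, Neto2 on 1436309_at at 0.22 and on 1454032_at at 0.42. That ratio separates the 4.5-month arrays from the rest, and the cause of these shifts was not tested. Same-numbered mice did not deviate together (r from -0.11 to 0.055 over 15 pairs of groups, 0 of them over 0.1), so no pairing by number was seen in the values. This cannot show whether such mice shared a litter or were processed together. With the replicate number as a block 7 probe sets were called to 4.5 months, 4 from 4.5 to 20 months, 5 and 6 for the steps to and from 9 months, 4 from 14.5 to 20 months and 0 in the tests of Tg against wt. Sampling of few mice and the absence of detection calls limit what can be said of the dimmest probe sets, and 3 of the 14 were not tested.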
